A study of Mus musculus with 3 samples.

Results

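The genes described here encode the machinery of the endoplasmic reticulum (ER) that takes in, folds, modifies and checks proteins on their way out of the cell. They are 42 genes chosen by name as known parts of this pathway, and all 42 were found among the 23519 genes of the deposited files. Each of them stood at 10 TPM or more in every library. TPM is transcript abundance corrected for gene length, on a scale whose total is the same in each library. The tissue was the epididymis, a coiled duct where sperm become mature, of adult male ICR mice, an outbred strain. The Sham group (3 mice) underwent surgery in which the testes stayed in place. The other 10 of the 13 mice were castrated on both sides with their epididymides left intact, and were treated from 14 days after surgery. Of these, 5 received corn oil, the vehicle (Cas+CO), and 5 received testosterone propionate, an ester of testosterone, in corn oil (5 mg/kg, injected under the skin daily for 10 days; Cas+T). No vehicle treatment is recorded for Sham, so ratios over Sham also hold that difference. Each group has 1 library, and how many of its mice went into it is not given in the sources used here. No value therefore has a replicate error, no p-value is given, and each ratio compares 2 libraries rather than 2 conditions. The RNA came from tissue with several cell types, in which fewer cells of a type and less RNA per cell cannot be told apart.

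The libraries differed in ways that touch every ratio below. The median over genes was 2.26 TPM (Sham), 5.03 (Cas+CO) and 2.83 (Cas+T). The median log2 ratio of (TPM + 1), over genes at 1 TPM or more in at least 1 of the 2 libraries, was 0.76 for Cas+CO over Sham, -0.46 for Cas+T over Cas+CO and 0.30 for Cas+T over Sham. Ratios and orders are given as deposited unless stated. Bringing the libraries to the same median (written below as equal medians) lowers the Cas+CO ratio over Sham of each member, and 11 of the 14 members above Sham in Cas+CO as deposited then lie below it. The label of the tissue was checked on 12 epididymal principal cell genes, among them the sperm-coating protein gene Crisp1 and the epithelial keratin genes Krt8 and Krt18. Their summed level was 104769 TPM (Sham), 10929 (Cas+CO) and 74534 (Cas+T). All 12 were at 314 TPM or more in Sham, Lcn8 and Lcn9 were listed at 0 in Cas+CO, and Lcn9 was listed at 0 in Cas+T.

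A secreted protein enters the ER through the Sec61 channel, loses its signal peptide to the signal peptidase and receives sugar chains from the oligosaccharyl transferase. Chaperones such as BiP (gene Hspa5) and the lectins calreticulin and calnexin hold it while disulfide isomerases join its cysteines. Proteins that fail to fold are sent back to the cytosol and destroyed, a route called ER-associated degradation (ERAD). An overload of unfolded protein sets off the unfolded protein response, in which the transcription factors ATF6, XBP1 and ATF4 raise genes for folding and degradation. Principal cells of the epididymis are known for heavy secretion of proteins that coat and protect sperm.

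ATF6 and XBP1 are known to act through the ER stress response element (ERSE), which reads CCAAT, then 9 bases of any kind, then CCACG. The element was searched for in the 250 bases before the RefSeq start of each gene (GRCm38.p6), on both strands. Of the 42 genes, 32 had such a window. The element was found in 9 of these, and in 35 of all 27025 genes with a window (0.130%). The 9 genes and their 10 sites are shown because they are the members whose promoters share letters. Each site is printed in the direction of the element, with its fixed bases in capitals.
Hspa5: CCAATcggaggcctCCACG
Hsp90b1, farther site: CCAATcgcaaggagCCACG
Hsp90b1, nearer site: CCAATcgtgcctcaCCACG
Calr: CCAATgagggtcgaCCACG
Canx: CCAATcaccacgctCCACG
Creld2: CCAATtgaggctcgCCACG
Pdia6: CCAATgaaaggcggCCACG
Dnajc3: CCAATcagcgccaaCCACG
Syvn1: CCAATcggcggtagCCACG
Derl3: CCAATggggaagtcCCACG
The Hspa5 site lies at chr2:34772025-34772043 on the plus strand, from 65 to 47 bases before the RefSeq start. The Syvn1 site lies nearest to its start (44 to 26 bases before it) and the farther Hsp90b1 site lies farthest (212 to 194 bases). In Calr, Creld2, Derl3 and the nearer Hsp90b1 site the element runs against the direction of the gene. A shorter relative, ERSE-II, reads ATTGG, 1 base of any kind and CCACG. It was found in 1 member, Herpud1, and in 0.0370% of all genes with a window. The unfolded protein response element, TGACGTGG, was found in 0 members and in 0.603% of all such genes. ERSE and ERSE-II both contain CCACG, which alone occurred in 23 of the 32 members and in 31.0% of all such genes. The Herpud1 window ends in CCAAT, 9 bases and CCAC. The base after it was not searched, so an ERSE that crosses the end of the window is not counted. A match describes letters in a window and not binding.

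The whole windows of 3 members follow, chosen by their values in Cas+CO against Sham as deposited. Creld2 was at least 2-fold lower there, and the ERAD genes Herpud1 and Derl3 were not lower. With equal medians the log2 ratios of all 3 were below 0, at -1.89, -0.62 and -0.36 in that order. The fixed bases of ERSE or ERSE-II are in capitals, and each window runs 5′ to 3′ along the strand of its gene.
Creld2: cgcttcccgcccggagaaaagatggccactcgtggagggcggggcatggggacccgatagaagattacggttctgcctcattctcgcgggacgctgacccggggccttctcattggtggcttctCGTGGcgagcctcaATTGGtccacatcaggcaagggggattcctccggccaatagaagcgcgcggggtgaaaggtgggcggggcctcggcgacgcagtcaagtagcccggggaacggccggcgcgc
Herpud1: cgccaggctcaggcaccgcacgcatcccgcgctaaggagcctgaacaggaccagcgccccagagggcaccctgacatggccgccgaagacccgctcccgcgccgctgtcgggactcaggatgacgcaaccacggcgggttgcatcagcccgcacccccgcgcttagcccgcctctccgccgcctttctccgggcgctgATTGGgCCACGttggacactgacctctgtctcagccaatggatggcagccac
Derl3: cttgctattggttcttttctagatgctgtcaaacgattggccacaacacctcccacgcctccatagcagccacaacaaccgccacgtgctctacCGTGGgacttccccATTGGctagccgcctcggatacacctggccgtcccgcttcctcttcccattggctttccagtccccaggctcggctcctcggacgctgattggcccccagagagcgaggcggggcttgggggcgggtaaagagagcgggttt
Their positions in GRCm38.p6 are chr15:88819396-88819645 (plus strand), chr8:94386179-94386428 (plus strand) and chr10:75893148-75893397 (plus strand), in that order.

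The comparison of Cas+CO against Sham asks how the secretory machinery stood in the epididymis without testes. Most folding and translocation genes among the 42 were lower in Cas+CO while the median gene was higher. Of the 42 genes, 28 lay below Sham in Cas+CO, against 18.2% of the 16182 genes compared. Once the libraries were scaled to the same median the number was 39, against 48.6% of all genes. At least 2-fold lower were 5 genes (Sdf2l1, Manf, Creld2, Pdia6 and Ssr4), where 6.48% of all genes compared were that far down. Only Ddit3 was at least 2-fold higher, where 37.6% of all genes were that far up. With that scaling, 22 of the 42 were at least 2-fold lower and again only Ddit3 higher, against 12.4% and 13.7% of all genes. A further scaling left out of every total each gene among the 50 most abundant of any library. With it, 8 were at least 2-fold lower and Ddit3 higher, against 8.03% and 25.4%. The median log2 ratio of the 42 genes was -0.24, beside 0.76 for all genes compared. Of the 42, 39 lay below the median of all genes, and Ddit3, Xbp1 and Sel1l lay above it.

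**Figure D1:**
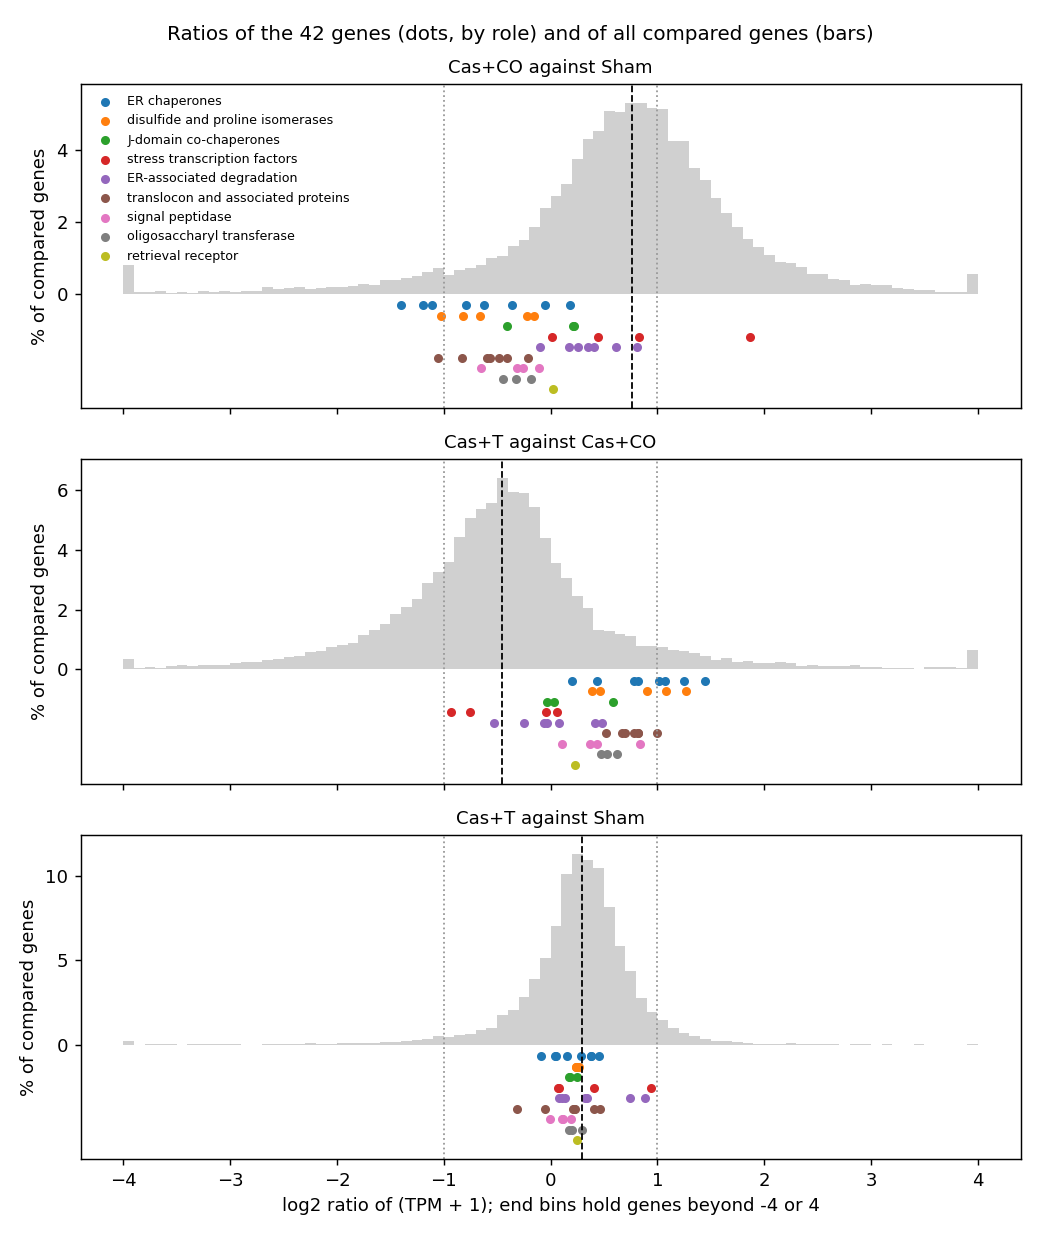
Log2 ratios of (TPM + 1) for the 42 genes (dots, 1 row per role) under the distribution of all compared genes (bars, percent of genes per bin of 0.1), for the 3 comparisons. The dashed line is the median of all genes (0.76, -0.46 and 0.30) and dotted lines mark 2-fold. Nearly all dots lie left of the dashed line in Cas+CO against Sham and right of it in Cas+T against Cas+CO.

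Chaperones held the most abundant and the most lowered members. Sdf2l1 (ENSMUSG00000022769, chr16:17130138-17132383 in GRCm38), which encodes a partner of BiP's co-chaperones, was at 101 TPM (Sham), 37.8 (Cas+CO) and 104 (Cas+T). Its ratio was the lowest of the 42, 2.64-fold below Sham in Cas+CO on the (TPM + 1) scale, and the Cas+T level lay close to Sham. Its rank among all genes, which no scaling of a library alters, went from the 95.6 percentile in Sham to the 83.2 in Cas+CO and the 94.96 in Cas+T. Manf (ENSMUSG00000032575, chr9:106838312-106891979), an ER-resident factor that binds BiP, was at 579 TPM (Sham), 252 (Cas+CO) and 599 (Cas+T), which is 2.29-fold lower in Cas+CO. Creld2 (ENSMUSG00000023272, chr15:88819646-88826683), a stress-induced ER protein with EGF-like repeats, was at 141 TPM (Sham), 64.7 (Cas+CO) and 132 (Cas+T). Both genes, like Sdf2l1, were lowest in Cas+CO and had similar levels in Sham and Cas+T.

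The large chaperones were lower by less than 2-fold. Calr, calreticulin, the soluble lectin chaperone, was at 1945 TPM (Sham), 1121 (Cas+CO) and 2364 (Cas+T) (log2 ratio -0.79 for Cas+CO over Sham). Hspa5, whose protein BiP binds exposed hydrophobic stretches of unfolded chains, was at 1666 TPM (Sham), 1079.7 (Cas+CO) and 1855 (Cas+T) (-0.62). Hsp90b1, the ER form of the chaperone HSP90, was at 1257 TPM (Sham), 979 (Cas+CO) and 1721 (Cas+T) (-0.36). All 3 were highest in Cas+T and lowest in Cas+CO as deposited. Scaled to the same median, their Cas+CO ratios were -1.59, -1.42 and -1.16, all beyond 2-fold. Hyou1, the large ER chaperone that exchanges the nucleotide on BiP, was nearly level between Sham and Cas+CO at 96.7 TPM (Sham), 93.0 (Cas+CO) and 126 (Cas+T). Canx, calnexin, the lectin chaperone anchored in the membrane, was the 1 chaperone not lower as deposited, at 459.9 TPM (Sham), 522 (Cas+CO) and 599.97 (Cas+T), and its ratio over Sham turned from 0.18 to -0.61 when the libraries were brought to the same median. The ratio of Calr to Canx within a library, which scaling cannot alter, was 4.23 (Sham), 2.15 (Cas+CO) and 3.94 (Cas+T). The soluble and the membrane form of the lectin pair thus differed in their Cas+CO ratios.

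**Figure D2:**
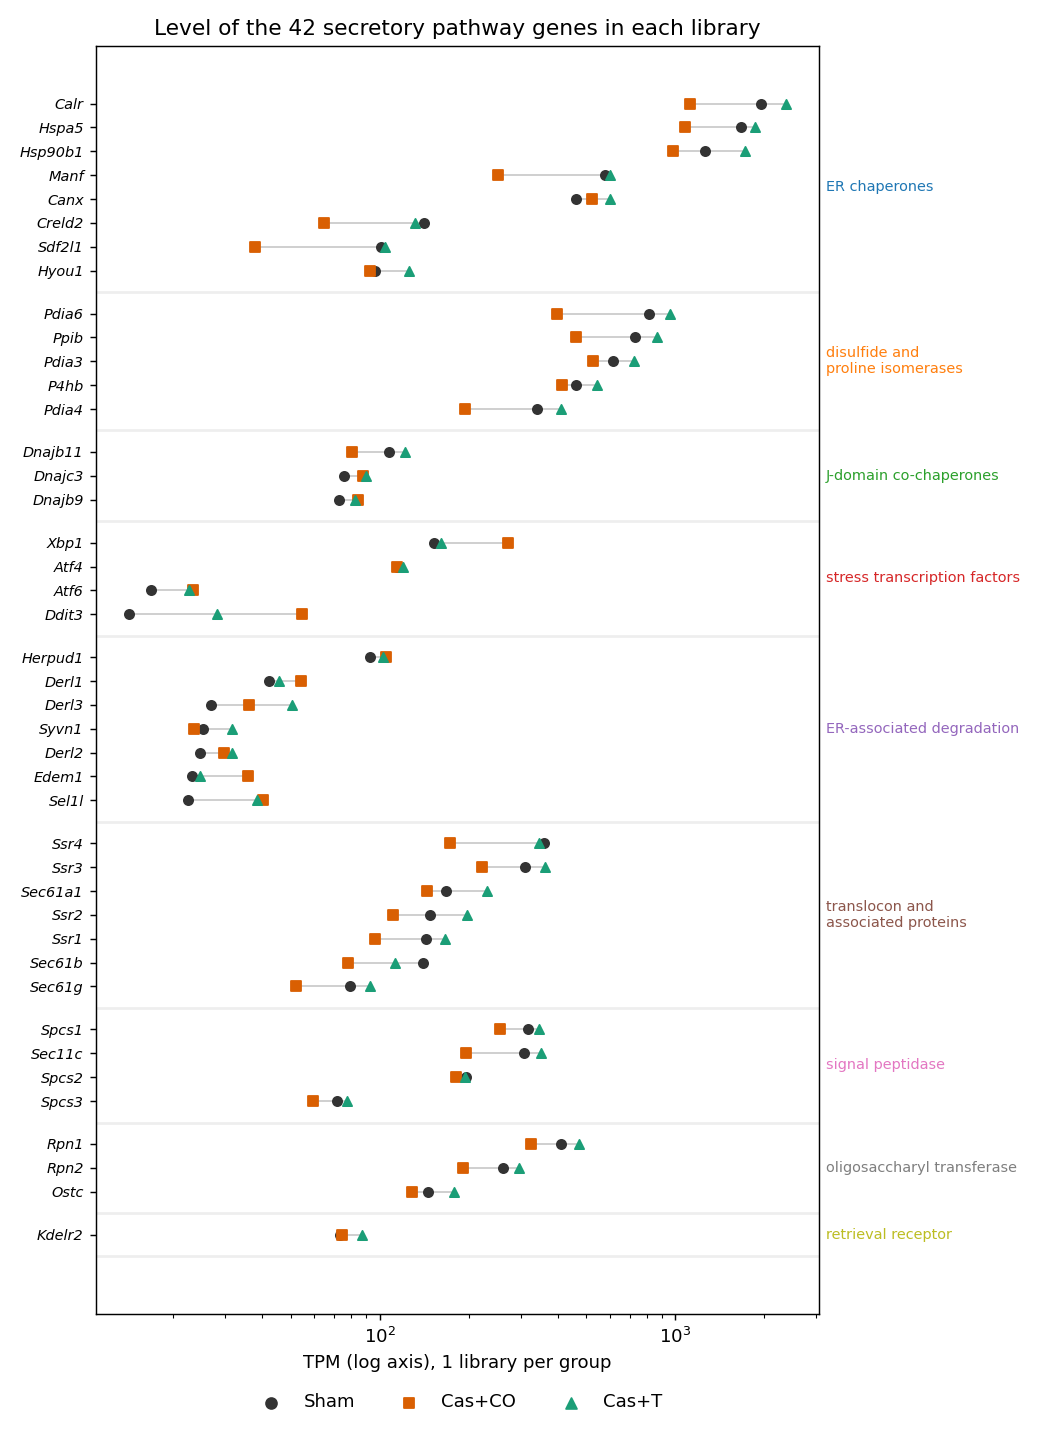
Level of each of the 42 genes in TPM (log axis) in the Sham (circles), Cas+CO (squares) and Cas+T (triangles) library, grouped by role and ordered by the Sham level; there is 1 library per group and no error bar. In most rows of the chaperone, isomerase, translocon, signal peptidase and oligosaccharyl transferase genes the square is the lowest mark, whereas for Xbp1, Ddit3 and Edem1 it is the highest.

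All 5 isomerases were lower in Cas+CO as deposited and under both other scalings. Pdia6 (ENSMUSG00000020571, chr12:17266545-17284770), a disulfide isomerase that also acts on the stress sensors, was at 812 TPM (Sham), 399 (Cas+CO) and 962 (Cas+T), 2.03-fold below Sham in Cas+CO. Pdia4, a larger relative, was at 342 TPM (Sham), 194 (Cas+CO) and 411 (Cas+T), and Ppib, cyclophilin B, which turns proline bonds, was at 729 TPM (Sham), 462 (Cas+CO) and 866 (Cas+T). These 3 had the largest differences of the group. Pdia3, the disulfide isomerase that works with calreticulin and calnexin, was at 616 TPM (Sham), 528 (Cas+CO) and 726 (Cas+T). P4hb, the founding protein disulfide isomerase and a subunit of collagen prolyl hydroxylase, was at 461 TPM (Sham), 415 (Cas+CO) and 545 (Cas+T). Neither differed by as much as 1.5-fold in any comparison as deposited, and both were lowest in Cas+CO. Of the exonic bases of Ppib, 24.96% overlap Snx22 on the other strand. Strandedness is not given in the sources used here, but Snx22 was at no more than 4.59 TPM in any library.

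The 3 co-chaperones with a J domain, which drive the ATP cycle of BiP, did not share 1 pattern. Dnajb11, which brings unfolded chains to BiP, was at 107 TPM (Sham), 80.7 (Cas+CO) and 122 (Cas+T). Dnajb9, which helps BiP hold the stress sensor IRE1 in check, was at 72.7 TPM (Sham), 84.2 (Cas+CO) and 82.3 (Cas+T), and Dnajc3, also known as p58IPK, was at 75.7 TPM (Sham), 88.1 (Cas+CO) and 90.2 (Cas+T). The first was lowest in Cas+CO, while Dnajb9 and Dnajc3 were lowest in Sham. With equal medians all 3 lay below Sham in Cas+CO, with log2 ratios of -1.19, -0.57 and -0.57. Sdf2l1 and Dnajb11, whose proteins form a complex, stood at a ratio of 0.947 (Sham), 0.469 (Cas+CO) and 0.858 (Cas+T).

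Of the 4 stress transcription factor genes, Ddit3, Xbp1 and Atf6 were highest in Cas+CO as deposited, and with equal medians Atf6 and Atf4 lay below Sham there. Ddit3 (ENSMUSG00000025408, chr10:127290774-127296288), which encodes CHOP, a factor linked to cell death under prolonged stress, was at 14.2 TPM (Sham), 54.6 (Cas+CO) and 28.2 (Cas+T). It was 3.65-fold above Sham in Cas+CO, and its rank went from the 75.1 to the 88.4 percentile, with the 82.2 in Cas+T. Xbp1 (ENSMUSG00000020484, chr11:5520659-5525893) was at 152 TPM (Sham), 272 (Cas+CO) and 161 (Cas+T). Its Cas+CO level was the highest of the 3 as deposited (log2 ratio 0.83 over Sham), but the ratio was 0.04 once the libraries had the same median, close to that of the median gene. The ratio of Xbp1 to Hspa5 was 0.0915 (Sham), 0.252 (Cas+CO) and 0.0867 (Cas+T), whatever the scaling. Gene totals do not separate the spliced, active form of Xbp1 from the unspliced one. Atf4 was close to level at 114 TPM (Sham), 115 (Cas+CO) and 119.6 (Cas+T), and Atf6 was at 16.8 TPM (Sham), 23.3 (Cas+CO) and 22.6 (Cas+T). Their log2 ratios of Cas+CO over Sham turned from 0.01 to -0.78 and from 0.45 to -0.31 with equal medians. ATF4 is largely controlled at translation and ATF6 by cleavage, neither of which these data measure.

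XBP1 is also needed by antibody-secreting plasma cells, so 12 plasma and B cell genes were read beside it. Their summed level was 62.1 TPM (Sham), 632 (Cas+CO) and 84.2 (Cas+T), of which Sdc1, also made by epithelia, gave 54.7, 163 and 70.6 TPM. The immunoglobulin light chain gene Igkc was at 1.15 TPM (Sham), 315 (Cas+CO) and 4.16 (Cas+T). Of the 12, 11 could be compared between Cas+CO and Sham and all 11 were at least 2-fold higher in Cas+CO, against 37.6% of all genes. With equal medians 8 were that far higher, against 13.7% of all genes. Cd79b was listed at 0 in Sham and Igha in Cas+T. The part of these cells in the Xbp1 level was not tested.

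ERAD genes were all within 2-fold of Sham in Cas+CO. Of the 7, 6 were higher and Syvn1 was lower as deposited, near the 81.7% of all genes that were higher. With equal medians only Sel1l lay above 0, against 51.4% of all genes, and the list median was -0.42. Sel1l, the adaptor of the ERAD ubiquitin ligase, was at 22.5 TPM (Sham), 40.3 (Cas+CO) and 38.5 (Cas+T), and Syvn1, the ligase HRD1 itself, was at 25.3 TPM (Sham), 23.6 (Cas+CO) and 31.8 (Cas+T). The partners of that complex thus differed, with Sel1l near its Cas+CO level in Cas+T. Edem1, which directs misfolded glycoproteins to degradation, was at 23.2 TPM (Sham), 35.9 (Cas+CO) and 24.6 (Cas+T), close to Sham in Cas+T. Herpud1, a stress-induced membrane protein of the complex, varied little (93.0, 105 and 103 TPM in the same order). The derlins line the exit channel of ERAD. Derl1 was at 42.3, 54.3 and 45.7 TPM and Derl2 at 24.7, 29.8 and 31.6 TPM, while Derl3, the form most tied to secretory cells, was at 27.0, 36.0 and 50.7 TPM. Derl3 was highest in Cas+T, at 1.85 times its Sham level on the (TPM + 1) scale, whereas Derl1 was highest in Cas+CO.

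The 7 translocon members, which serve entry into the ER, were lower in Cas+CO in every case, as deposited and under both other scalings. Ssr4 (ENSMUSG00000002014, chrX:73787028-73790830), a subunit of the translocon-associated protein complex that aids entry of many chains, was at 359.5 TPM (Sham), 173 (Cas+CO) and 346 (Cas+T), 2.07-fold lower in Cas+CO. Its partners were lower by less: Ssr1 was at 143, 96.6 and 167 TPM, Ssr2 at 148, 111 and 197 TPM and Ssr3 at 311, 223 and 361 TPM in Sham, Cas+CO and Cas+T. The 4 subunits of 1 complex therefore shared the direction but not the size, and the ratio of Ssr4 to Ssr1 was 2.51, 1.79 and 2.07. The channel subunits were Sec61a1, the pore, at 167 TPM (Sham), 145 (Cas+CO) and 230.4 (Cas+T), Sec61b at 139.9, 78.2 and 112 TPM and Sec61g at 79.3, 52.3 and 92.9 TPM. Sec61b was the member farthest below Sham in Cas+T (log2 ratio -0.31), while Sec61a1 was above Sham there (0.46).

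Signal peptidase and oligosaccharyl transferase genes were lower in Cas+CO by smaller amounts. Sec11c, a catalytic subunit of the signal peptidase, was at 307 TPM (Sham), 195 (Cas+CO) and 350.4 (Cas+T), and showed the largest difference of its group. Spcs1 (318, 255 and 345 TPM), Spcs2 (196, 181 and 195 TPM) and Spcs3 (71.6, 59.5 and 77.3 TPM), its other subunits, were within 1.3-fold of Sham in Cas+CO. Among subunits of the oligosaccharyl transferase, Rpn1 was at 409, 326 and 471 TPM, Rpn2 at 262, 192 and 296 TPM and Ostc at 146, 128 and 179 TPM. All 3 were lowest in Cas+CO and highest in Cas+T as deposited. Kdelr2, a receptor that returns escaped ER proteins from the Golgi, was nearly level between Sham and Cas+CO as deposited (73.2, 74.3 and 87.0 TPM), with a log2 ratio of 0.02 that became -0.76 with equal medians. Of the 42 genes, 12 share exonic bases with another gene of the files, and in 4 of them (Hsp90b1, Ppib, Spcs1 and Ssr2) the shared part exceeds 10% of the exonic bases. The Spcs1 overlap is with Glt8d1, at 41.2, 60.3 and 54.2 TPM. That of Ssr2 (12.8% of its exonic bases) is with the pseudogene Gm10704, at 36.1, 54.6 and 71.0 TPM in Sham, Cas+CO and Cas+T. The values of these 4 genes are uncertain to that extent.

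Abundant genes in general had lower Cas+CO ratios than rare ones, so the members were also set beside other genes of the same mean level over the 3 libraries. Among genes from 100 to 300 TPM, the median log2 ratio of Cas+CO over Sham was -0.41 for 16 members and 0.28 for 839 other genes. From 300 TPM upward it was -0.49 for 12 members and 0.17 for 370 others. Of the members in these ranges, 15 of 16 and 11 of 12 lay below the other genes' median, and the exceptions were Xbp1 and Canx. From 30 to 100 TPM the medians were 0.21 for 10 members and 0.57 for 2874 others. The 4 members from 10 to 30 TPM, Atf6, Syvn1, Edem1 and Derl2, all lay below the median of 0.79 there. Each range holds few members, so these medians are descriptions.

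**Figure D3:**
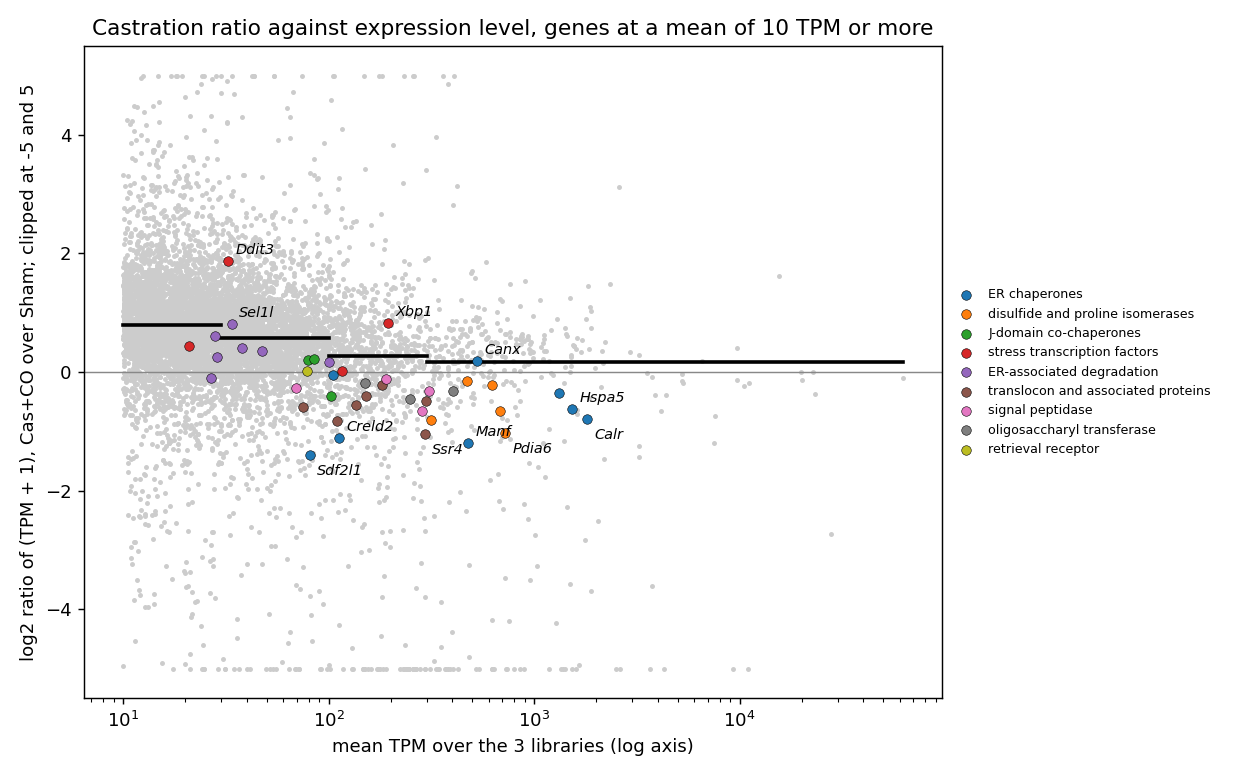
Log2 ratio of (TPM + 1), Cas+CO over Sham, against the mean TPM over the 3 libraries (log axis) for genes at a mean of 10 TPM or more; grey points are all genes, coloured points the 42 members by role, and black bars the median of the other genes in each range of level (0.79, 0.57, 0.28 and 0.17 from left to right). Most members lie below the black bar of their range, and Ddit3, Sel1l, Xbp1 and, barely, Canx lie above it.

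The ratios of members with and without an ERSE overlapped in Cas+CO against Sham. The 9 genes with an ERSE had a median log2 ratio of -0.36 in Cas+CO over Sham, with 6 below 0, from -1.11 (Creld2) to 0.41 (Derl3). The 23 genes with a window and no full ERSE inside it had a median of -0.32, with 15 below 0. They ran from -1.40 (Sdf2l1) to 1.87 (Ddit3) and include Herpud1, whose window ends within a possible element. In Cas+T over Cas+CO the medians were 0.78 and 0.46, with 9 of 9 and 17 of 23 above 0. Over all genes compared, 18.2% lay below 0 in Cas+CO over Sham and 24.4% above 0 in Cas+T over Cas+CO. These are descriptions of few genes, with no test.

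Cas+T against Cas+CO asks where the same genes stood after testosterone was given to castrated mice. Most folding and entry genes among the 42 were higher in Cas+T while the median gene was lower. At least 2-fold above Cas+CO were 6 of the 42 (Sdf2l1, Pdia6, Manf, Pdia4, Calr and Creld2), where 6.9% of the 16165 genes compared were that far up. None of the 42 was at least 2-fold lower, where 23.4% of all genes were that far down. At equal medians 18 were at least 2-fold higher and none lower, against 10.0% and 12.8% of all genes. Without the 50 most abundant genes in the total, 8 were higher and none lower, against 7.48% and 19.2%. The median log2 ratio of the 42 was 0.48, beside -0.46 for all genes. Because this comparison and that of Cas+CO against Sham share the Cas+CO library, a low Cas+CO value alone lowers 1 ratio and raises the other, so their values are set side by side and no likeness between them is drawn.

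The largest log2 ratios of Cas+T over Cas+CO were 1.44 for Sdf2l1, 1.27 for Pdia6 and 1.25 for Manf. Calr and Pdia4 were at 1.08 and 1.08, and Creld2 at 1.02. Every member of the chaperones was higher, and so was every member of the isomerases (median 0.91), the translocon group (0.78), the signal peptidase (0.40) and the oligosaccharyl transferase (0.53). The chaperone median was 0.92. By contrast, the stress transcription factors had a median of -0.40 and the ERAD genes of -0.03. Lower in Cas+T were 8 genes, led by Ddit3 (-0.93), Xbp1 (-0.75) and Edem1 (-0.53), where 75.5% of all genes were lower. With equal medians only these 3 of the 42 were lower, against 52.1% of all genes.

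Cas+T against Sham asks how near the treated castrates stood to mice with testes. All 42 genes lay within 2-fold of Sham as deposited and after both other scalings, so none was counted in either direction. Among the 14631 genes compared, 5.19% were 2-fold or more above Sham and 2.75% that far below. The shares were 2.16% and 4.08% with equal medians, and 3.12% and 3.33% without the 50 most abundant genes in the total. As deposited, 38 of the 42 were above Sham (all but Creld2, Sec61b, Ssr4 and Spcs2), a larger share than the 78.1% of all genes. Their median log2 ratio was nonetheless 0.22, beside 0.30 for all genes. With equal medians, 10 were above and 32 below Sham, where 52.1% of all genes were below, so the direction of most members there depends on the scaling. The middle 50% of the members spanned 0.20 on the log2 scale and that of all genes 0.49. In Cas+CO against Sham the same spans were 0.80 and 1.04. All genes compared include those near 1 TPM, while each member was at 10 TPM or more, and spans at matched level were not compared. The members farthest above Sham in Cas+T were Ddit3 (0.94), Derl3 (0.89) and Sel1l (0.75), and these 3 stayed above Sham under all 3 scalings. All 5 isomerases lay between 0.24 and 0.27 over Sham, the narrowest span of any role with more than 3 genes.

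Seen across the 3 libraries, 28 of the 42 genes had their lowest level in Cas+CO, against 14.9% of the 12679 genes at 1 TPM or more in all 3 libraries. At equal medians the number was 38 against 43.9%. Conversely, 8 members were highest in Cas+CO (Dnajb9, Xbp1, Atf6, Ddit3, Herpud1, Sel1l, Edem1 and Derl1), against 72.7% of those genes, and 2 against 40.1% after scaling. None of the 42 was lowest in Cas+T as deposited, against 14.2% of those genes, while Xbp1 and Edem1 were lowest there with equal medians.

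In sum over genes, the 42 members made up 1.31% of the summed TPM (Sham), 0.948% (Cas+CO) and 1.55% (Cas+T). The 8 chaperones summed to 6245 TPM (Sham), 4149 (Cas+CO) and 7502 (Cas+T), and the 5 isomerases to 2960.1, 1997 and 3510.1 TPM. The 7 translocon genes summed to 1349, 879 and 1506 TPM in the same order. In contrast, the 4 stress transcription factors summed to 297, 464 and 331 TPM, highest in Cas+CO, and the 7 ERAD genes to 258, 325 and 325 TPM. The 12 principal cell genes given above also summed to less in Cas+CO than in both other libraries, over a wider range, with Cas+CO at 0.104 of the Sham sum against 0.664 for the chaperones. Their keratins Krt8 (314, 304 and 363 TPM) and Krt18 (344, 471 and 399.8 TPM) were not lower by as much as 1.1-fold in Cas+CO as deposited. Their log2 ratios over Sham there were -0.05 and 0.45, and scaling to the same median lowers Cas+CO by 0.80, which would put both below Sham. Marker sums of other cell types were highest in Cas+CO, with fibroblast genes at 104, 1297 and 109.8 TPM, adipocyte genes at 34.7, 1470.3 and 87.2 TPM, macrophage genes at 64.3, 605 and 114 TPM and red blood cell genes at 82.9, 2731 and 45.2 TPM. All 6 sperm genes were listed at 0 in Cas+CO, 5 of 6 in Cas+T, and summed to 71.4 TPM in Sham. The part of these cell types in the levels of the 42 genes was not tested.

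**Figure D4:**
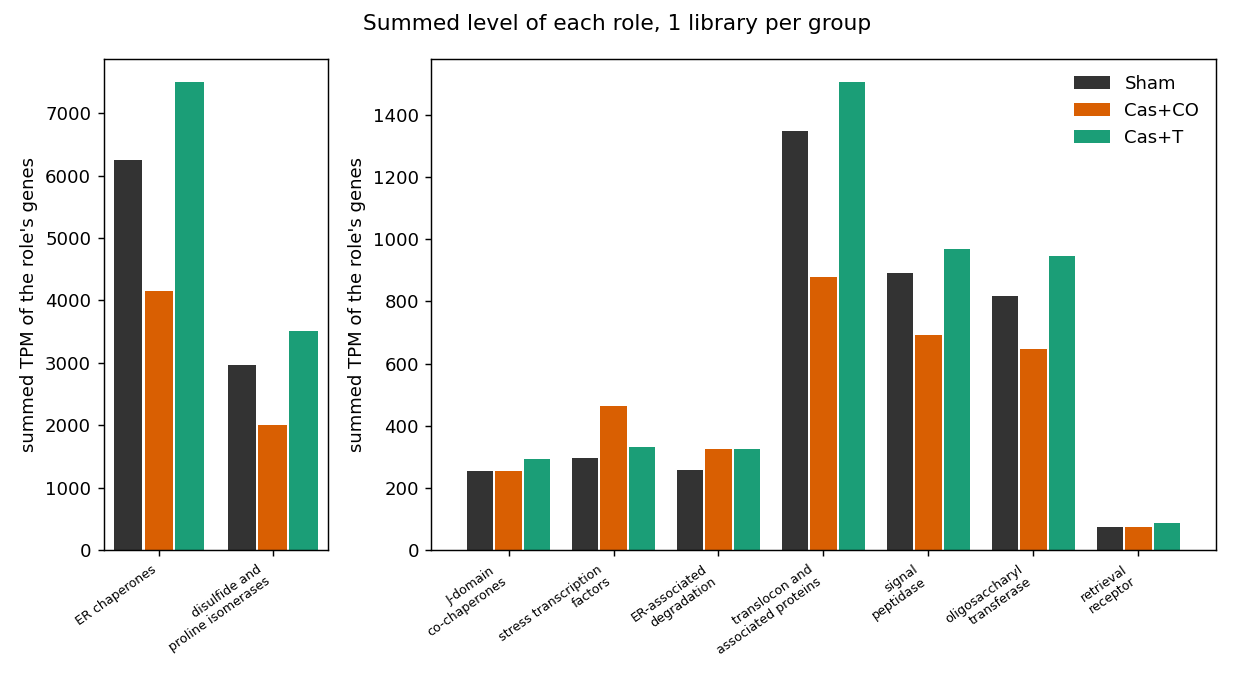
Summed TPM of the genes of each role in the Sham, Cas+CO and Cas+T library (1 library per group, no error bar; the axes of the panels differ and both start at 0). Cas+CO is the lowest bar for chaperones (4149 TPM), isomerases, translocon, signal peptidase and oligosaccharyl transferase genes, and the highest for stress transcription factors (464 TPM).

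Outside the 42 genes, 157 further genes of the pathway were listed by role, of which 151 could be compared in Cas+CO against Sham. Of these, 14 were at least 2-fold higher and 6 lower, where the shares over all genes were 37.6% and 6.48%, with a median log2 ratio of 0.26. In Cas+T against Cas+CO 11 of 151 were higher and 8 lower, against 6.9% and 23.4% of all genes, so the share higher was near that of all genes. In Cas+T against Sham 3 of 146 were higher and 0 lower, against 5.19% and 2.75%. With equal medians 5 were higher and 32 lower in Cas+CO against Sham, against 13.7% and 12.4% of all genes. In Cas+CO against Sham as deposited, the median of the wider pathway lay between those of the 42 members and of all genes.

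Folding genes outside the members passed 2-fold in both directions. In Cas+CO against Sham, 4 of 35 were at least 2-fold higher and 3 lower, where 37.6% and 6.48% of all genes were. With equal medians the counts were 2 and 10, against 13.7% and 12.4%. Serpinh1, the collagen chaperone HSP47, was at 8.97 TPM (Sham), 48.8 (Cas+CO) and 7.63 (Cas+T), and Fkbp10, a proline isomerase that also acts on collagen, was at 2.48 TPM (Sham), 17.5 (Cas+CO) and 5.98 (Cas+T). Both were highest in Cas+CO, as was the fibroblast sum above, and the part of fibroblasts in them was not tested. The stress sensor and target list had 5 of 21 at least 2-fold higher, a smaller share than over all genes, and 0 lower. These counts were 2 and 1 with equal medians. The list was led by Creb3l1, an ER-anchored transcription factor of secretory and matrix-forming cells, at 0.980 TPM (Sham), 10.3 (Cas+CO) and 1.87 (Cas+T), and Atf3, an early stress factor, at 5.29 TPM (Sham), 20.3 (Cas+CO) and 5.01 (Cas+T). Their Cas+T levels were closer to Sham than to Cas+CO. The log2 ratio of Cas+T over Sham was 0.54 for Creb3l1, -0.07 for Atf3 and 0.94 for the member Ddit3, also higher in Cas+CO.

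Transport out of the ER had its largest differences in cargo receptors. Of 28 genes of COPII coats and cargo receptors, 2 were at least 2-fold lower and 1 higher in Cas+CO, the share of lower genes being near the 6.48% over all genes. The counts higher and lower were 0 and 9 with equal medians, against 13.7% and 12.4% of all genes. Tmed3, a p24 family cargo receptor, was at 394 TPM (Sham), 126 (Cas+CO) and 306 (Cas+T), and Lman2, a lectin that carries glycoproteins, was at 227 TPM (Sham), 76.8 (Cas+CO) and 236 (Cas+T). These are larger ratios (log2 -1.63 and -1.55) than that of any of the 42 members in the same direction. Of 14 genes of COPI coats and retrieval none passed 2-fold in any comparison as deposited. With equal medians 2 were lower in Cas+CO against Sham and 2 higher in Cas+T against Cas+CO, against 12.4% and 10.0% of all genes. The largest there were Kdelr3, a relative of Kdelr2, at 14.4, 8.29 and 15.2 TPM, and Cope, a coat subunit, at 161, 102 and 176 TPM.

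The remaining lists had few genes past 2-fold as deposited, where 37.6% of all genes were that far higher and 6.48% lower in Cas+CO. With equal medians these shares over all genes were 13.7% and 12.4%. Of 20 further ERAD genes, 1 was lower in Cas+CO and none higher, and with equal medians 2 were lower and none higher. The gene lower as deposited was Erlec1, a lectin of the ERAD complex, at 212 TPM (Sham), 87.7 (Cas+CO) and 199.6 (Cas+T), unlike the 7 ERAD members, none of which was 2-fold lower as deposited or with equal medians. Man1b1, the mannosidase that trims misfolded glycoproteins, was at 26.7, 50.1 and 31.6 TPM. Among 14 genes of translocation and signal recognition 2 were higher and none lower, but 1 was higher and 3 lower with equal medians. Sec61a2, the second form of the channel pore, was at 9.26 TPM (Sham), 26.2 (Cas+CO) and 25.1 (Cas+T), whereas Sec61a1 was lowest in Cas+CO. Sec62, a partner of the channel, was at 80.2, 151 and 91.7 TPM. Of 19 genes of sugar transfer and its donor synthesis, 2 were higher and none lower, which turned to none higher and 5 lower with equal medians. Alg8 (5.71, 14.4 and 9.28 TPM) and Alg2 (26.8, 51.0 and 29.0 TPM), both enzymes of donor assembly, had the largest ratios as deposited among genes at 10 TPM or more.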

How the data were processed

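RNA from the epididymis was profiled in 3 libraries, 1 per group, with standard Illumina protocols per the labels. Not given in the sources used here were the aligner, counting tool, build, strandedness and depth. Each deposited file holds 1 log2 value per gene. Raised from the log2 scale and reduced by 1, the deposited values are multiples of 0.01 for all values under 1000 (tolerance 0.001) and sum to 1000000 per library, so they were read as log2(TPM + 1). TPM keeps no depth, so no counting interval can be given.

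Of 23538 identifiers, 23518 matched GENCODE M21 (GRCm38), which gave names and coordinates. Rows sharing a name were summed, leaving 23519 genes. Log2 ratios used a pseudocount of 1 and genes at 1 TPM or more in at least 1 of the 2 libraries, and understate the change of low genes. With 1 library per group a gene was counted at 2-fold, without a test. Tried as alternatives were no minimum, a 10 TPM minimum and a pseudocount of 0.1. Libraries were also scaled to the same median over 12679 genes at 1 TPM or more in all 3. The last alternative was a library total that omits each gene among the top 50 by abundance in any of the 3 libraries. The members and lists were chosen with earlier results of these data known. All 42 members are named; of each further list, the 2 genes with the largest Cas+CO ratio over Sham among those at 10 TPM or more in any library are named, and others were named after their values were seen. Promoter windows are RefSeq's (GRCm38.p6); 10 members had none: Hyou1, Manf, Atf6, Derl1, Sec61a1, Ssr2, Spcs3, Sec11c, Ostc and Kdelr2. The single value of 1 marker gene is not reported here. The code was tested on simulated data. Python 3.11.15, NumPy 2.4.6, pandas 2.3.3 and matplotlib 3.10.9 were used.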

Additional observations from a re-analysis of the deposited data

How the results depend on the processing

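The counts of members past 2-fold depended on how the libraries were scaled. Members 2-fold or more below Sham in Cas+CO numbered 5 as deposited, 22 with the libraries at the same median and 8 with the total taken without the 50 most abundant genes (8.03% of all genes). Members 2-fold or more above Cas+CO in Cas+T numbered 6, 18 and 8 under the same settings. The scaling to the same median lowers Cas+CO by 0.80 and Cas+T by 0.35 on the log2 scale. The members' median relative to all genes stayed from -1.11 to -0.72 in Cas+CO against Sham and from 0.78 to 0.99 in Cas+T against Cas+CO over the 5 alternatives and the main setting. In Cas+T against Sham it was -0.07, and 0.042 with no minimum, where 22105 genes entered. The pseudocount and the minimum altered no count of members past 2-fold. No paired analysis was possible because each group has 1 library. For the same reason no library could be left out, and the depth, which sets the precision, is unknown.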

Other observations

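Further folding and secretion genes, named after their values were seen, were lowest in Cas+CO like most chaperones. Nucb2, nucleobindin 2, a secreted calcium-binding protein, was at 486 TPM (Sham), 105 (Cas+CO) and 562 (Cas+T). Qsox1, an oxidase that makes disulfides in secreted proteins, was at 178 TPM (Sham), 39.0 (Cas+CO) and 165 (Cas+T). Pdia5, a disulfide isomerase, was at 51.8 TPM (Sham), 19.3 (Cas+CO) and 62.7 (Cas+T). All 3 lay more than 2-fold below Sham in Cas+CO and more than 2-fold above Cas+CO in Cas+T.

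Some genes of the further lists lay above Sham in Cas+T, as did 78.1% of all genes. Magt1, a subunit of the oligosaccharyl transferase form that acts after translation, was at 37.5 TPM (Sham), 45.2 (Cas+CO) and 106 (Cas+T), highest in Cas+T, whereas the members Rpn1, Rpn2 and Ostc were within 2-fold of Sham. Uggt1, which marks unfolded glycoproteins for another round with calnexin, was at 63.3 TPM (Sham), 42.05 (Cas+CO) and 98.5 (Cas+T), and Fkbp11, a proline isomerase of secretory cells, at 26.4 TPM (Sham), 15.0 (Cas+CO) and 42.6 (Cas+T). Sec61a2 was alike in both castrated libraries, as given above. The log2 ratio of Cas+T over Sham was 1.47 for Magt1 and 1.35 for Sec61a2. Those of Uggt1 and Fkbp11, 0.63 and 0.67, were within 2-fold, as were those of all 42 members.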
